A study of Mus musculus with 3 samples.

Results

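Collagens are the main structural proteins of the extracellular matrix, and the genes described here are those that encode their chains. They were chosen by name: every probe that is not a control and whose gene name in the scanner files has the form of a collagen chain (Col, a type number, a and a chain number) was taken. This gave 78 probes of 40 genes, out of 41169 probes and 27665 genes measured. The rule used no measured value.

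The arrays measured RNA in muscle of male mice that were 6 weeks old by the labels, after 14 days. The 3 groups were swimming mice whose food held 0.5% powder of Chlorella, a unicellular green alga, swimming mice on normal food, and nonswimming mice on normal food. All 3 groups share sex and labelled age. The sources used here name no strain, genotype, swimming schedule or type of muscle. RNA of 10 mice was pooled in each group and hybridised to 1 single-colour array, so a group is 1 pool and no spread between mice was measured.

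A collagen molecule is made of several chains wound into a triple helix, and some types mix chains from different genes. Types I, III and V form the fibrils of connective tissue, and in muscle they fill the sheaths around fibres and fibre bundles. Type II, with types IX, X and XI, is known from cartilage, where type IX decorates the type II fibrils and type X marks enlarged chondrocytes. Type IV forms the network of basement membranes, which surround muscle fibres and blood vessels, and type VI forms beaded microfibrils near them.

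The signal of a probe is given below as the processed intensity divided by the 75th percentile of its array, called the scaled signal, and a log2 ratio is the difference between 2 arrays of the log2 of this value. A gene is represented by its brightest probe, and is called measured in a comparison where this probe was well above background on both arrays by the scanner software's flag. The error after a ± sign is the software's error of the spots, which holds no difference between mice; a ratio beyond the 95% limit of this error is farther from 0 than spot error usually takes it. With 1 array per group no test between groups was possible, and none of the differences below has a replicate check. Levels of different probes are not comparable, so only arrays are compared. The comparisons share arrays, so their ratios are not independent of each other.

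The numbers of probes well above background were 23448 with Chlorella, 24857 in swimming and 23841 in nonswimming mice, and no probe was saturated. The 75th percentiles were 237.8, 295.0 and 285.9 intensity units on these arrays. All 7 skeletal muscle genes listed as markers (among them actin and myosin chains) were well above background on every array, with summed scaled signals of 4602 with Chlorella, 3506 in swimming and 4137 in nonswimming mice. Markers of other tissues were present, and some lists differed far more. The 7 genes of the neutrophil lineage summed to 3.34 with Chlorella, 273 in swimming and 16.0 in nonswimming mice, and 4 adipocyte genes to 306, 425 and 232. Such a sum is carried by its brightest probes. S100a9 alone gave 2.83, 207 and 12.2 of the neutrophil sums, and Fabp4 282, 364 and 208 of the adipocyte sums. Of the collagen genes, 36, 38 and 37 were well above background on the Chlorella, swimming and nonswimming arrays, and 36 were so on all 3. The brightest probes of Col25a1 and Col28a1, which encode a membrane collagen of neurons and a collagen known from peripheral nerve, were on none.

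The 250 bases upstream of the annotated start are shown for 5 collagen genes, 3 of cartilage and 2 of connective tissue fibrils, because the cartilage genes held the largest differences between arrays and the fibril genes small ones. The sequences are those of RefSeq with the build GRCm38.p6, and capitals mark each match on either strand to a TATA box, searched as TATAAA, to a CCAAT box, searched as those letters, or to a GC box, searched as GGGCGG.
Col9a1 (chr1:24177360-24177609, + strand): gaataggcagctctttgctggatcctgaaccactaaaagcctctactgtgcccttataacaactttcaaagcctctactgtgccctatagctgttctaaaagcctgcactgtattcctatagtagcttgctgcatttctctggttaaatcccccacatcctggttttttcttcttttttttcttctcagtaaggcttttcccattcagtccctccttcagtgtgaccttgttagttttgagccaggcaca
Col9a2 (chr4:121039316-121039565, + strand): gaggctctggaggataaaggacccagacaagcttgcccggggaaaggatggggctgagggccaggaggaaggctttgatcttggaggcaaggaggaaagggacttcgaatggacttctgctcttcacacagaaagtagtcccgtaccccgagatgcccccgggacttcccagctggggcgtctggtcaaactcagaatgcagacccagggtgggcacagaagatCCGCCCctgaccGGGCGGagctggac
Col10a1 (chr10:34389731-34389980, + strand): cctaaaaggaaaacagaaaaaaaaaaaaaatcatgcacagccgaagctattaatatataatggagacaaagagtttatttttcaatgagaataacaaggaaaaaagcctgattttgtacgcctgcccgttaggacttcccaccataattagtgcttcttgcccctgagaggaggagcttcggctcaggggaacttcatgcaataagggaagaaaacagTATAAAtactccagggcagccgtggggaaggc
Col3a1 (chr1:45311288-45311537, + strand): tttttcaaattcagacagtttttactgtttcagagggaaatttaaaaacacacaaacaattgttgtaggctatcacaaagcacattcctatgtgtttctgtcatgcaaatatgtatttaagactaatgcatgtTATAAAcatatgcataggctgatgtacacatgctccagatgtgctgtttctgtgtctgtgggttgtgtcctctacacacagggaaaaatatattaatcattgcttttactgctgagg
Col1a2 (chr6:4505368-4505617, + strand): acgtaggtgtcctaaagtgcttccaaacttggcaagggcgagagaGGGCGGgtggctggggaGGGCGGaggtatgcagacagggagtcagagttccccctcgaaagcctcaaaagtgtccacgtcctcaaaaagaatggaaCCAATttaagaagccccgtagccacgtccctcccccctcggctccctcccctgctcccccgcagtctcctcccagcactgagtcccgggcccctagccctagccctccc

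The Col9a1 stretch held none of the 3 motifs, and that of Col9a2, a partner chain of the same collagen, held 2 matches to GGGCGG. Col10a1 had a TATAAA 32 bases before its start, and Col3a1 one 117 bases before. Col1a2 had a CCAAT 109 bases before its start and 2 matches to GGGCGG. Of the 32 collagen genes with an entry in the promoter table, 18 (56.3%) held GGGCGG, against 32.7% of all 32851 promoters in windows of the same length. For each collagen gene only the start farthest upstream was taken, while all promoters include every start listed, so the sets are not fully alike. Col2a1, Col9a3 and Col1a1 had no entry. TATAAA was found in 5 collagen promoters (15.6%, against 12.4% of all) and CCAAT in 11 (34.4%, against 33.8%). The median share of G and C was 59.4% in the collagen promoters and 52.4% in all, so the higher share with GGGCGG came with a higher content of its letters. A match describes the letters and is no evidence of binding.

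Counted over all collagen genes, few passed 2-fold. In swimming against nonswimming mice 0 of 37 measured genes were at least 2-fold higher, where 5.17% of all 15660 measured genes were, and 2 were lower (Col9a1 and Col17a1), where 1.07% of all genes were. In Chlorella against normal food 0 of 36 were higher, with 1.37% of all 15503 genes, and 2 were lower (Col2a1 and Col9a3), with 4.90% of all genes. In Chlorella swimming against nonswimming mice 2 were higher (Col7a1 and Col19a1), with 2.09% of all 15331 genes, and 3 were lower (Col2a1, Col9a1 and Col9a3), with 1.49% of all genes. Each of these counts is small, and none has a replicate check. In bulk RNA of this kind, fewer cells of a type and less RNA per cell cannot be told apart.

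Smaller differences were more frequent. Beyond the 95% limit of the scanner error, 11 of 36 collagen genes were higher with Chlorella than with normal food in swimming mice, beside 11.5% of all genes, and 3 were lower, beside 12.3%. These counts, and those that follow, use the brightest probes and the main scaling. For swimming against nonswimming mice, 2 of 37 were higher, beside 12.3%, and 9 lower, beside 8.70%. In Chlorella swimming against nonswimming mice 6 of 36 were higher, beside 12.0%, and 7 lower, beside 10.1%. At 1.5-fold, 7 of 36 were higher and 3 lower in Chlorella against normal food, beside 5.89% and 9.20% of all genes. For swimming against nonswimming mice these counts were 1 and 6 of 37, beside 9.38% and 4.41%, and in Chlorella swimming against nonswimming mice 2 and 5 of 36, beside 6.65% and 5.79%. The swimming array is on top of one ratio and below the other in the comparisons that use it, so more higher genes in the one and more lower genes in the other are not separate observations. The medians over all measured collagens were 0.21 in Chlorella against normal food, 0.15 in Chlorella swimming against nonswimming mice and -0.20 in swimming against nonswimming mice.

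**Figure D1:**
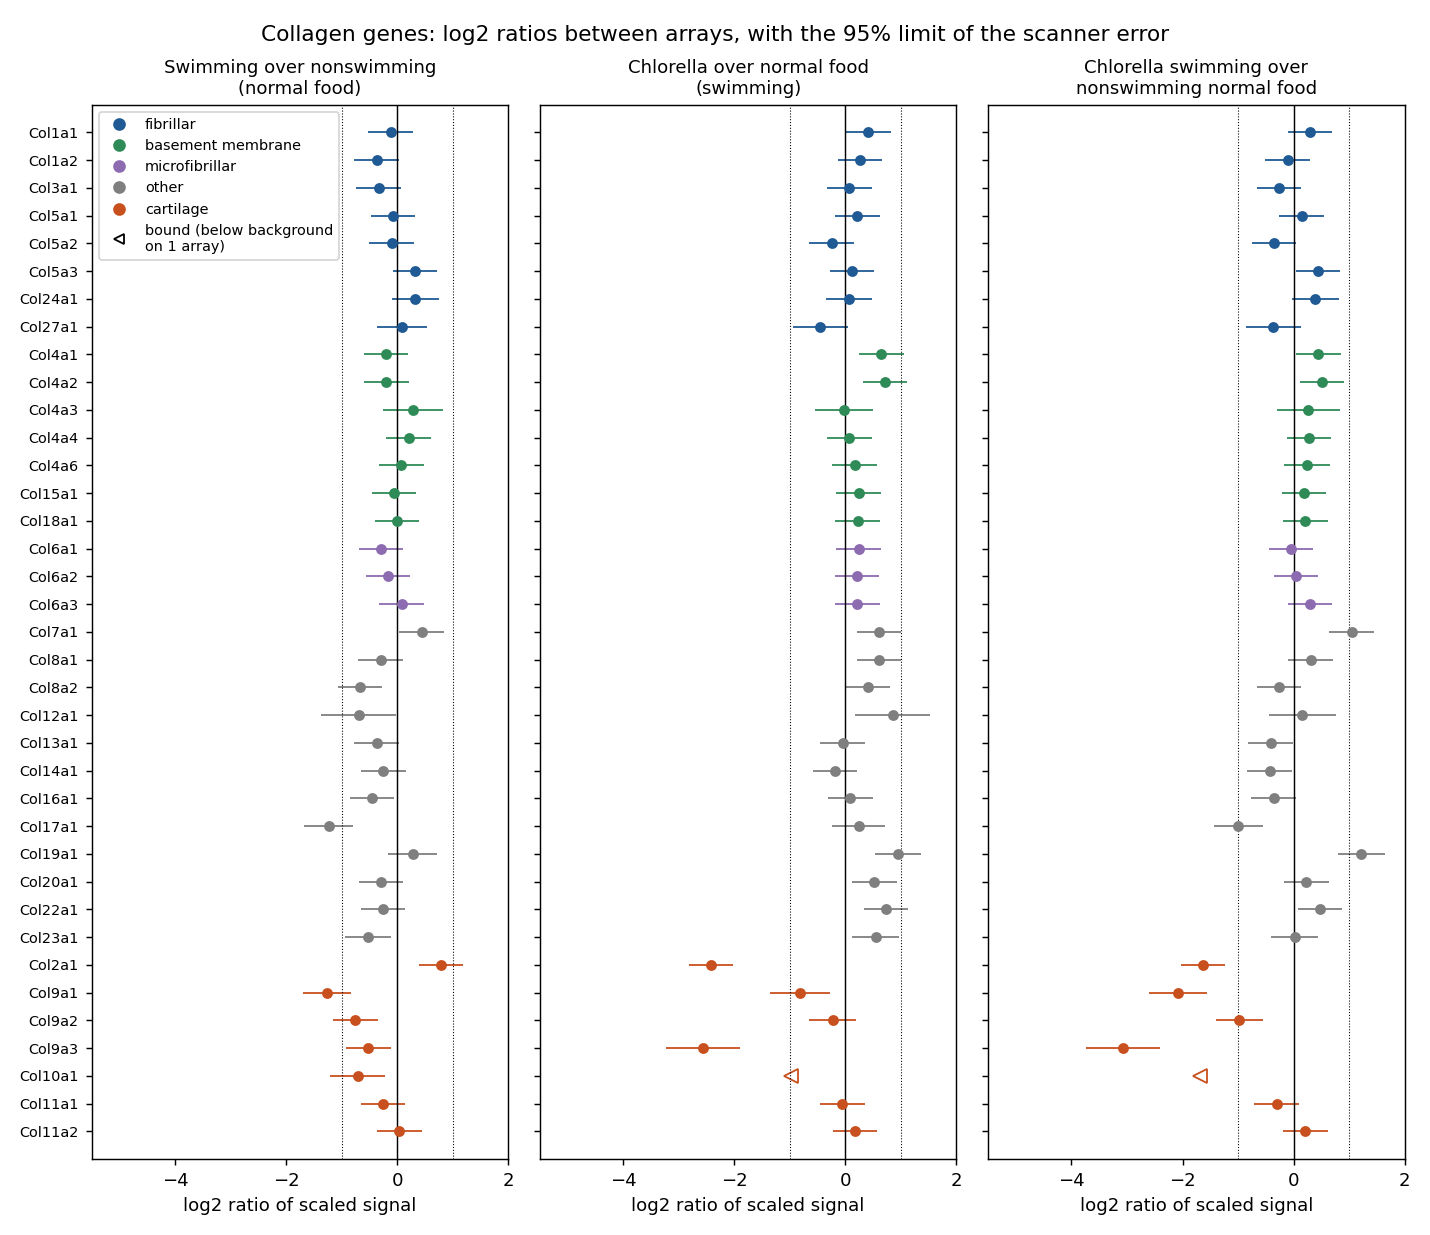
Log2 ratio of the scaled signal of each measured collagen gene in the 3 comparisons, coloured by class, with bars for the 95% limit of the scanner error. The open triangle is a bound for Col10a1, which was not well above background with Chlorella. Cartilage genes reach -3.08 (Col9a3) in Chlorella swimming against nonswimming mice, and fibrillar genes lie between -0.45 and 0.44 in all comparisons.

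The cartilage collagens held the lowest log2 ratio of all collagen genes in each of the 3 comparisons. Of the 6 genes measured in Chlorella swimming against nonswimming mice, 4 were lower beyond the scanner limit, where 10.1% of all measured genes were, and Col10a1 was lower by a bound. The type XI chains were within the limit, Col11a1 below 0 and Col11a2 above. Col2a1, which encodes the single chain of type II collagen, was lowest with Chlorella and highest in swimming mice on normal food, while the type IX chains and Col10a1 were highest in nonswimming mice. The median log2 ratio of the class was -0.52 in swimming against nonswimming mice (7 measured genes), -0.52 in Chlorella against normal food within swimming (6 genes) and -1.30 in Chlorella swimming against nonswimming mice (6 genes). The medians over all measured genes in these comparisons were -0.03, 0.08 and 0.04.

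**Figure D2:**
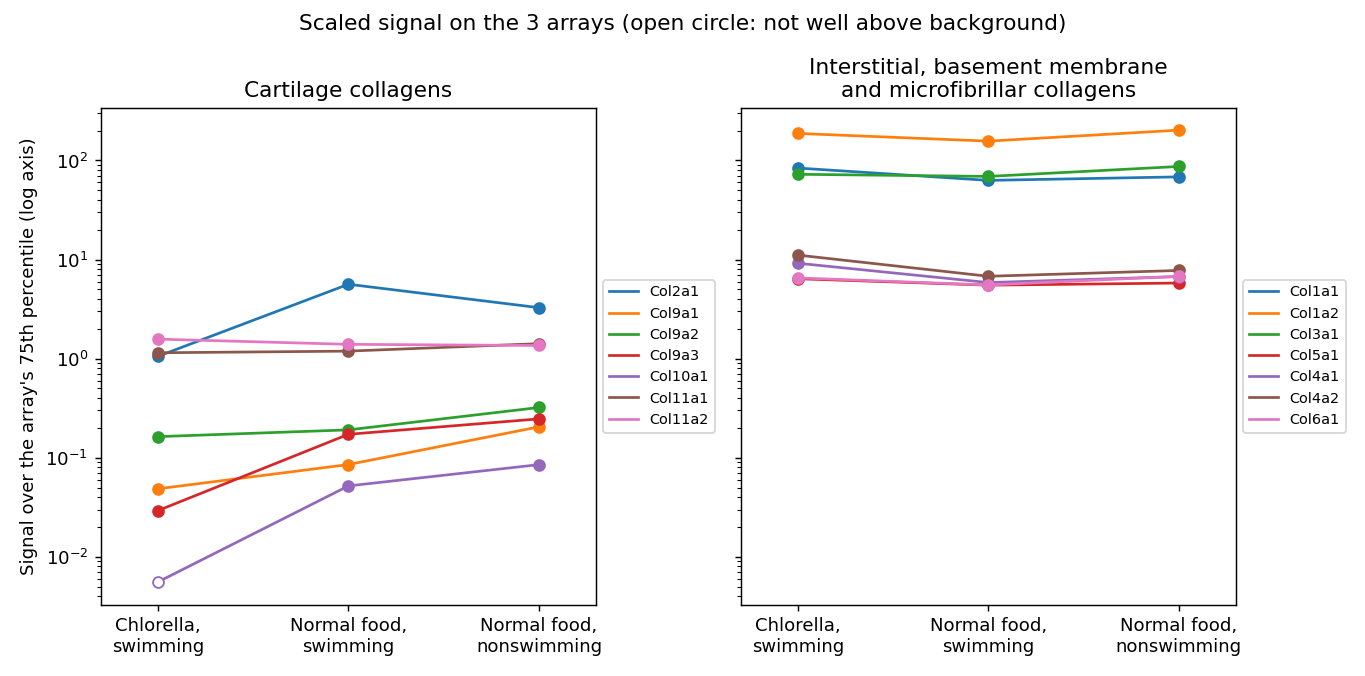
Scaled signal (signal over the 75th percentile of the array, log axis) of 7 cartilage collagen genes and of 7 collagen genes of fibrils, basement membranes and microfibrils on the 3 arrays. Each point is 1 array of 10 pooled mice, lines only join the points of a gene, and the open circle is not well above background. Col2a1 lies at 1.05 with Chlorella, 5.63 in swimming and 3.27 in nonswimming mice, while Col11a1 and Col11a2 stay between 1.15 and 1.57.

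Col2a1 had a scaled signal of 1.05 with Chlorella, 5.63 in swimming and 3.27 in nonswimming mice. The scanner files place its probe on chromosome 15, from 97979237 to 97979296, in a genome build that the sources used here do not name. The probe was spotted 10 times on each array, and the SD between the spots was 0.112, 0.206 and 0.225 on the Chlorella, swimming and nonswimming arrays. The 10 spots lay between 0.837 and 1.20 with Chlorella, between 5.26 and 5.89 in swimming mice and between 2.88 and 3.62 in nonswimming mice. The spots of the 3 arrays therefore did not overlap, which concerns the spot error of 3 pools and not the spread between mice. The log2 ratio was -2.42 ± 0.20 in Chlorella against normal food, -1.63 ± 0.20 in Chlorella swimming against nonswimming mice and 0.79 ± 0.20 in swimming against nonswimming mice. A further Col2a1 probe from 97979257 to 97979316, whose position overlaps the first, gave -3.78, -2.71 and 1.07. Both probes thus had the same order of arrays.

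**Figure D3:**
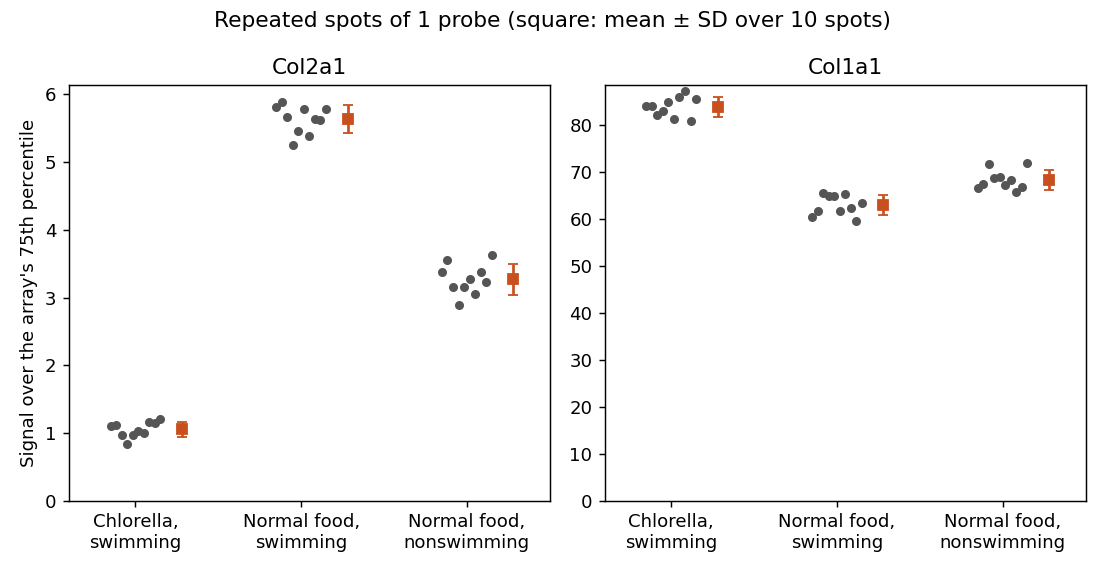
Scaled signal of the 10 spots of 1 probe on each array for Col2a1 and Col1a1, with the mean ± SD over spots as a square (linear axis starting at 0). The Col2a1 spots with Chlorella lie between 0.837 and 1.20, below all spots of both groups on normal food, and the Col1a1 means are 83.9, 63.0 and 68.3 with SDs from 2.09 to 2.13.

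Type IX collagen is built from 3 different chains, encoded by Col9a1, Col9a2 and Col9a3, and all were highest in nonswimming mice. Col9a1 had a scaled signal of 0.049 with Chlorella, 0.085 in swimming and 0.205 in nonswimming mice. Col9a2 had 0.163, 0.191 and 0.321 in the same order of groups. Col9a3 had 0.029, 0.172 and 0.246. The order of the arrays was the same for all 3 chains, with Chlorella lowest, while the size of the steps differed. In Chlorella against normal food within swimming, Col9a3 had a log2 ratio of -2.56 ± 0.34 and Col9a2 one of -0.23 ± 0.22, so that Col9a2 minus Col9a3 was 2.33 ± 0.40, beyond its scanner limit. The same chains had -0.52 ± 0.21 and -0.75 ± 0.21 in swimming against nonswimming mice, and their difference (-0.23 ± 0.30) was within the limit. Col9a1 had -1.26 ± 0.22 in swimming against nonswimming mice, -0.81 ± 0.28 in Chlorella against normal food and -2.08 ± 0.27 in Chlorella swimming against nonswimming mice. In that last comparison Col9a2 had -0.98 ± 0.21 and Col9a3 -3.08 ± 0.34.

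These chains were dim. The intensity of Col9a3 before scaling was 6.95 on the Chlorella array, where the lowest signal well above background was 6.26, against 50.8 in swimming and 70.5 in nonswimming mice. With the normexp background correction, which pulls dim probes together, its ratio in Chlorella against normal food was -0.54 and that of Col9a1 in swimming against nonswimming mice -0.59. Under this correction the ratio of Col9a1 in Chlorella against normal food was 0.01, so its direction there was not kept. In Chlorella swimming against nonswimming mice it gave -0.58 for Col9a1 and -0.82 for Col9a3, so neither passed 2-fold.

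Col10a1, the chain of type X collagen, was well above background in swimming and nonswimming mice, with scaled signals of 0.052 and 0.085, but not with Chlorella. It was at least 1.97-fold lower with Chlorella than with normal food in swimming mice and at least 3.23-fold lower than in nonswimming mice. These bounds set the mean of the brighter array against the higher of the lowest signal well above background and the probe's own signal on the Chlorella array. Its log2 ratio was -0.71 ± 0.25 in swimming against nonswimming mice, and -0.18 under normexp.

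The type XI chains, which form the core of cartilage fibrils and are also made outside cartilage, differed less by their brightest probes. Col11a1 had 1.15 with Chlorella, 1.19 in swimming and 1.42 in nonswimming mice, and Col11a2 had 1.57, 1.39 and 1.36. By these brightest probes neither passed the scanner limit in any comparison, with log2 ratios from -0.31 to 0.21. A dim further probe of Col11a1 had 0.74 ± 0.36 in swimming against nonswimming mice, beyond its limit, and was not well above background with Chlorella. By it Col11a1 was at least 1.80-fold lower with Chlorella than with normal food in swimming mice and at least 1.08-fold lower than in nonswimming mice. The differences of Col2a1 from Col11a1 were beyond their limits in all 3 comparisons: -2.36 ± 0.29 in Chlorella against normal food, -1.33 ± 0.29 in Chlorella swimming against nonswimming mice and 1.04 ± 0.29 in swimming against nonswimming mice. Averaged over its probes, Col11a1 had 0.24 in place of -0.25 in swimming against nonswimming mice, and Col11a2 had -0.25 in place of 0.04, so their directions there rest on the choice of probe.

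Markers of bone and cartilage cells differed between the same arrays. The 8 bone genes on the array summed to a scaled signal of 8.36 with Chlorella, 37.2 in swimming and 12.9 in nonswimming mice. Spp1 gave 3.20, 17.5 and 5.65 of these sums, and Bglap 1.49, 13.7 and 3.00. In Chlorella against normal food, 5 of 8 were at least 2-fold lower, beside 4.90% of all genes, with a median of -1.90. Farthest from 0 were Mepe and Ibsp, matrix proteins of bone (-3.67 ± 0.22 and -3.66 ± 0.21), and Bglap, which encodes osteocalcin (-3.20 ± 0.20). Of 7 measured bone genes, 5 were at least 2-fold higher in swimming than in nonswimming mice, beside 5.17% of all genes, with a median of 1.40. In Chlorella swimming against nonswimming mice 3 of 7 were lower by that size, beside 1.49%, with a median of -0.82. The sum of the bone genes, like Col2a1, was highest in swimming mice and lowest with Chlorella, while the type IX chains and Col10a1 were highest in nonswimming mice. Not every bone gene had the order of the sum. Alpl had 2.83 with Chlorella, 2.18 in swimming and 2.91 in nonswimming mice, and Dmp1 had 0.460, 0.604 and 0.334. Sost had 0.053 on both swimming arrays and was not well above background in nonswimming mice.

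The 8 cartilage cell genes summed to 14.3 with Chlorella, 28.2 in swimming and 20.0 in nonswimming mice. Comp alone gave 11.3, 22.5 and 16.2 of these sums. Of the 8 genes, 4 were well above background with Chlorella, 6 in swimming and 7 in nonswimming mice. Acan, which encodes the large proteoglycan aggrecan of cartilage, had a log2 ratio of -1.62 ± 0.23 in Chlorella against normal food, -1.11 ± 0.23 in Chlorella swimming against nonswimming mice and 0.52 ± 0.21 in swimming against nonswimming mice. Hapln1 and Cnmd, which encode the link protein of cartilage and chondromodulin, were above background in swimming and nonswimming mice but not with Chlorella. Matn3 was so in nonswimming mice alone and Matn1, the matrilin of cartilage, on no array. The medians were -0.91 in Chlorella against normal food and -0.40 in Chlorella swimming against nonswimming mice, over 4 measured genes each, and 0.48 over 6 in swimming against nonswimming mice. The part of bone and cartilage cells in the differences of the cartilage collagens was not tested. Sox9, which encodes the transcription factor that drives Col2a1 in chondrocytes, ran the other way in Chlorella against normal food. It had 0.570 with Chlorella, 0.282 in swimming and 0.355 in nonswimming mice, a log2 ratio of 1.01 ± 0.21 in that comparison. Sox5, a partner of Sox9 in cartilage, was well above background in nonswimming mice alone and at least 8.96-fold lower with Chlorella than there; between the swimming groups it gave no value.

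**Figure D4:**
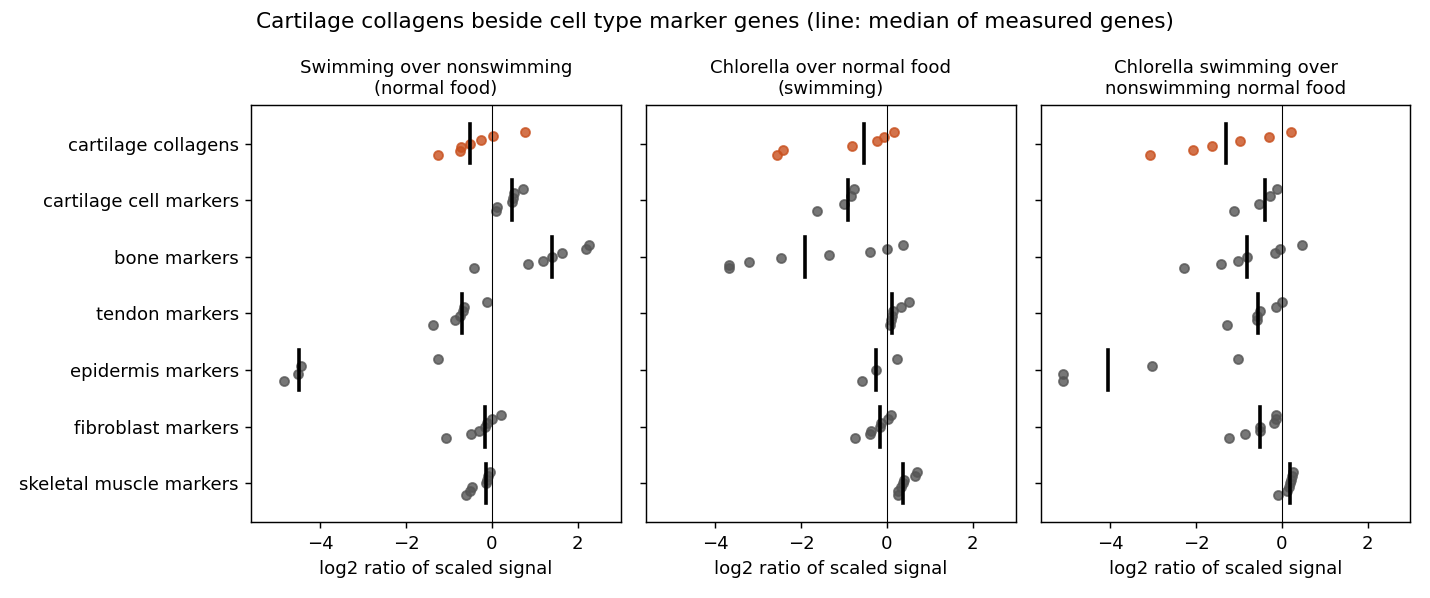
Log2 ratio of the scaled signal in the 3 comparisons for the cartilage collagens and for marker genes of 6 other tissues or cell types. Each point is a measured gene and the vertical line is the median. Bone markers have medians of 1.40, -1.90 and -0.82 in swimming against nonswimming, Chlorella against normal food, and Chlorella swimming against nonswimming mice, and cartilage collagens medians of -0.52, -0.52 and -1.30.

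The fibrillar collagens of connective tissue differed little. None of the 8 was 2-fold different in any comparison, and their median log2 ratios were -0.09 in swimming against nonswimming mice, 0.10 in Chlorella against normal food and 0.02 in Chlorella swimming against nonswimming mice. The sign of the last median turned with other scalings, with a range from -0.09 to 0.12.

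Col1a1, the main chain of type I collagen, had a scaled signal of 83.9 with Chlorella, 63.0 in swimming and 68.3 in nonswimming mice. Its probe on chromosome 11 (95060800 to 95060859 in the files' coordinates) was spotted 10 times, with SDs of 2.09, 2.13 and 2.10 between the spots of these arrays. Spots with Chlorella lay between 80.8 and 87.2, above all spots in swimming mice (59.6 to 65.4) and in nonswimming mice (65.8 to 72.0). The log2 ratio of Col1a1 was 0.41 ± 0.20 in Chlorella against normal food, just beyond its scanner limit, and 0.30 and -0.12 in Chlorella swimming and in swimming against nonswimming mice. In Chlorella against normal food a further bright Col1a1 probe had 0.30 ± 0.20, within its limit, and a dim one 0.52 ± 0.23, beyond it. Over the alternative settings the Col1a1 ratio there went down to 0.23. Col1a2, the other chain of type I, had 187.5 with Chlorella, 157 in swimming and 202 in nonswimming mice. Its difference from Col1a1 was within the limit in all 3 comparisons. The ratio of Col1a2 in Chlorella against normal food was 0.26 and came to -0.00 after quantile normalization, so it has no settled direction.

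Col3a1, the chain of type III collagen, had 72.6 with Chlorella, 69.1 in swimming and 87.0 in nonswimming mice, with log2 ratios of -0.33 in swimming against nonswimming mice, 0.07 in Chlorella against normal food and -0.26 in Chlorella swimming against nonswimming mice. The chains of type V, which sit inside type I fibrils, differed by at most 0.44 in size. Col5a1 had 6.40, 5.51 and 5.79 with Chlorella, in swimming and in nonswimming mice, and Col5a2 had 2.23, 2.65 and 2.84. Col5a3 had 8.30, 7.64 and 6.12, and its log2 ratio of 0.44 ± 0.20 in Chlorella swimming against nonswimming mice was the one fibrillar value beyond its limit in that comparison. Over the alternative settings this ratio went down to 0.35, within the limit of its main value. Col24a1 and Col27a1, minor fibrillar chains, were dim. Col24a1 had 0.205, 0.196 and 0.157 and Col27a1 0.078, 0.106 and 0.100 in the same order of groups. The ratio of Col27a1 in Chlorella swimming against nonswimming mice was -0.36 with its brightest probe, 0.10 averaged over its probes and 0.02 under normexp.

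Fibroblast and tendon markers gave these values beside the fibrillar genes. The 7 fibroblast genes summed to 150.6 with Chlorella, 193 in swimming and 260 in nonswimming mice, of which Dcn gave 123, 160 and 224. The 6 tendon genes summed to 74.8, 57.5 and 95.2. Fibroblast medians were -0.17 in swimming against nonswimming mice, -0.16 in Chlorella against normal food and -0.50 in Chlorella swimming against nonswimming mice. Tendon medians were -0.70, 0.13 and -0.55. Of the 7 fibroblast genes 1 was at least 2-fold lower than in nonswimming mice: Mfap5, a microfibril protein of fibroblasts. It had -1.23 ± 0.20 with Chlorella and -1.07 ± 0.20 in swimming mice. Of the 6 tendon genes 1 was so, the tendon cell protein tenomodulin (Tnmd), at -1.29 ± 0.20 with Chlorella and -1.37 ± 0.20 in swimming mice. Of all measured genes, 1.49% with Chlorella and 1.07% in swimming mice were lower by that size. The part of fibroblasts and tendon cells in the fibrillar values was not tested.

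Among basement membrane collagens the 2 main chains of type IV were highest with Chlorella. Col4a1 had a scaled signal of 9.18 with Chlorella, 5.86 in swimming and 6.73 in nonswimming mice. Col4a2 had 11.1, 6.78 and 7.76. These chains assemble with each other into the common type IV network, and their genes lie next to each other on chromosome 8 on opposite strands. The log2 ratios in Chlorella against normal food were 0.65 ± 0.20 for Col4a1 and 0.71 ± 0.20 for Col4a2. In Chlorella swimming against nonswimming mice they were 0.45 ± 0.20 and 0.52 ± 0.20. By these brightest probes all were beyond the scanner limit and short of 2-fold. A further Col4a1 probe had 0.51 ± 0.20 in Chlorella against normal food and 0.31 ± 0.20 in Chlorella swimming against nonswimming mice, the latter within its limit. By their brightest probes both chains had -0.20 ± 0.20 in swimming against nonswimming mice, within the limit. The difference between the chains was at most 0.07 in size in the 3 comparisons, within its limit of error each time.

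The other chains of type IV are known from special basement membranes such as that of the kidney filter. Col4a3 had 0.060 with Chlorella, 0.061 in swimming and 0.050 in nonswimming mice, and Col4a4, its neighbour on chromosome 1, had 0.766, 0.728 and 0.632. Col4a6 had 0.272, 0.242 and 0.230. None of these brightest probes passed the scanner limit. Other probes of Col4a6 disagreed: 1 was not well above background on any array, and 1 was so in swimming mice alone, with intensities before scaling of 1.87 with Chlorella, 27.1 in swimming and 1.90 in nonswimming mice. By this last probe Col4a6 was at least 3.49-fold lower with Chlorella than with normal food in swimming mice and at least 4.07-fold higher in swimming than in nonswimming mice. The brightest probe of Col4a5 was well above background in swimming mice alone, where its intensity was close to the floor, so no fold is given. Of 4 kidney markers 2, 3 and 2 were well above background on the Chlorella, swimming and nonswimming arrays. They summed to 0.206, 1.16 and 0.244, of which Umod gave 0.064, 0.895 and 0.131. The part of kidney RNA in the values of these chains was not tested.

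Col15a1 and Col18a1, which encode collagens that carry sugar chains in vessel and fibre basement membranes, had nearly the same ratios. Col15a1 had 1.47 with Chlorella, 1.25 in swimming and 1.29 in nonswimming mice, and Col18a1, the source of endostatin, had 5.32, 4.57 and 4.59. All 7 measured genes of the class lay above 0 in Chlorella swimming against nonswimming mice, with a median of 0.26, and 6 of 7 in Chlorella against normal food, with a median of 0.22. The median of all measured genes was 0.04 and 0.08 in these comparisons, and only Col4a1 and Col4a2 were beyond the scanner limit. The class median was -0.01 in swimming against nonswimming mice, with a range from -0.16 to 0.07 over the alternative settings. The 10 other basement membrane genes listed with them, such as laminin chains and nidogens, had no 2-fold difference, with medians of 0.24 in Chlorella against normal food, 0.13 in Chlorella swimming against nonswimming mice and -0.15 in swimming against nonswimming mice. Of these partner genes Lama5 (0.66 ± 0.20), Lamb2 (0.52 ± 0.20) and Lamc1 (0.45 ± 0.20) were higher beyond the scanner limit in Chlorella against normal food. None was lower beyond it, and 11.5% of all measured genes were higher beyond it. Endothelial markers, 6 genes, summed to 20.5 with Chlorella, 17.1 in swimming and 21.2 in nonswimming mice and held no 2-fold difference.

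The chains of type VI, the microfibrillar collagen linked to the muscle fibre surface, differed by less than the scanner limit in their brightest probes. Col6a1 had 6.53 with Chlorella, 5.54 in swimming and 6.77 in nonswimming mice, Col6a2 had 1.88, 1.63 and 1.83, and Col6a3 had 8.58, 7.38 and 6.98. In Chlorella against normal food the 3 chains had close log2 ratios, from 0.21 to 0.24, while Col6a3 averaged over its probes had 0.48. A dim further probe of Col6a3 was not well above background in nonswimming mice, and by it the gene was at least 2.02-fold higher with Chlorella and at least 1.20-fold higher in swimming mice than there.

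The remaining 14 collagen genes are a mixed group of collagens on the surface of fibrils, in membranes, in anchoring structures and in short networks, of which 12 were measured in every comparison. Their median log2 ratio was 0.53 in Chlorella against normal food, where 8 were higher beyond the scanner limit and none lower, beside 11.5% and 12.3% of all genes. It was -0.33 in swimming against nonswimming mice, where 1 was higher and 5 lower beyond the limit, beside 12.3% and 8.70%. In Chlorella swimming against nonswimming mice it was 0.09, with 3 higher and 3 lower, beside 12.0% and 10.1%. The 8 higher genes in Chlorella against normal food depend on the settings. Over the alternatives Col8a1 went down to 0.23, Col8a2 to 0.35, Col23a1 to 0.11 and Col12a1 to 0.33, each within the scanner limit of its main value. A further probe of Col22a1 had 0.38 ± 0.20 there, within its limit.

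Col7a1, the chain of the anchoring fibrils below surface epithelia, had 3.36 with Chlorella, 2.21 in swimming and 1.63 in nonswimming mice. The step of 0.60 ± 0.20 between food groups and that of 0.44 ± 0.20 between swimming and nonswimming mice added to 1.04 ± 0.20 in Chlorella swimming against nonswimming mice, just past 2-fold. Over the alternative settings this last value lay between 0.91 and 1.04. Col19a1, which encodes a minor collagen of basement membrane zones and muscle, had 0.258, 0.135 and 0.111. Its log2 ratio was 0.94 ± 0.21 in Chlorella against normal food and 1.22 ± 0.22 in Chlorella swimming against nonswimming mice, and under normexp the last value was 0.64. Col9a1, its neighbour on chromosome 1 on the opposite strand, had -0.81 and -2.08 in these comparisons.

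Col17a1, a membrane collagen that ties basal keratinocytes to the skin's basement membrane, had 0.099 with Chlorella, 0.084 in swimming and 0.197 in nonswimming mice. Its log2 ratio was -1.23 ± 0.23 in swimming against nonswimming mice, -0.99 ± 0.23 in Chlorella swimming against nonswimming mice and 0.24 ± 0.24 in Chlorella against normal food. Under normexp the values against nonswimming mice were -0.50 in swimming mice and -0.23 with Chlorella. Epidermis markers were also highest in nonswimming mice: the 6 genes summed to 2.14 with Chlorella, 1.86 in swimming and 7.75 in nonswimming mice, of which the keratin gene Krt10 gave 2.01, 1.71 and 4.10. In Chlorella against normal food the 3 measured genes were split, with a median of -0.26. Krt5 had -0.58 ± 0.37, Lor -0.26 ± 0.36 and Krt10 0.23 ± 0.20. By bounds, Krt14 was at least 2.55-fold higher with Chlorella in that comparison and Krt15 at least 1.38-fold lower. Of the 6 epidermis genes, 4, 4 and 6 were well above background on the Chlorella, swimming and nonswimming arrays. All 4 measured in swimming against nonswimming mice were at least 2-fold lower (median -4.48), beside 1.07% of all genes. All 4 measured in Chlorella swimming against nonswimming mice were so as well (median -4.06), beside 1.49%. Lor, which encodes loricrin of the outer skin, had -4.85 ± 0.26 in swimming against nonswimming mice, and the basal keratin gene Krt5 -4.52 ± 0.25. The part of skin RNA in the Col17a1 value was not tested.

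Col22a1, a collagen of the junction between muscle and tendon, had 6.34 with Chlorella, 3.82 in swimming and 4.55 in nonswimming mice, with log2 ratios of 0.73 ± 0.20 in Chlorella against normal food, 0.48 ± 0.20 in Chlorella swimming against nonswimming mice and -0.25 in swimming against nonswimming mice. Col8a1 and Col8a2, chains of a short network collagen of vessels, had 0.61 ± 0.20 and 0.41 ± 0.20 in Chlorella against normal food. Averaged over its probes Col8a1 had 0.25 there. Col8a2 was lowest in swimming mice, with 0.840 with Chlorella, 0.633 in swimming and 1.01 in nonswimming mice.

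Col20a1, Col23a1 and Col12a1 were also higher with Chlorella than with normal food, by 0.52, 0.54 and 0.85 ± 0.35 on the log2 scale. Averaged over its probes Col23a1 had 0.24. Col12a1, a collagen on fibril surfaces in dense connective tissue, was dim, with intensities before scaling of 11.6 with Chlorella, 7.95 in swimming and 12.5 in nonswimming mice, and under normexp its ratio was 0.33. Col14a1, which has a similar place on fibrils, had 2.60, 2.96 and 3.51, with -0.43 ± 0.20 in Chlorella swimming against nonswimming mice. Col13a1 and Col16a1 were highest in nonswimming mice, with -0.41 and -0.36 in that comparison.

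Genes that make and cross-link collagen differed by less than 2-fold where measured. Of 30 genes on the array, such as the prolyl and lysyl hydroxylases, the chaperone gene Serpinh1 and the lysyl oxidases, 26, 26 and 25 were measured in swimming against nonswimming mice, Chlorella against normal food and Chlorella swimming against nonswimming mice. No measured gene was 2-fold different, and the medians were -0.27, 0.04 and -0.19. Some log2 ratios were beyond the scanner limit. In Chlorella against normal food Loxl2 had 0.94 ± 0.20, Loxl3 0.66 ± 0.28 and P4ha2 0.45 ± 0.20, while P3h2 had -0.64 ± 0.23. In swimming against nonswimming mice Lox (-0.61 ± 0.20), P3h3, P4ha2, Loxl2 and Pcolce2 were lower beyond it and none was higher. In Chlorella swimming against nonswimming mice the values lay between -0.69 (Pcolce2) and 0.51 (Loxl2). Serpinh1 had 29.4 with Chlorella, 31.1 in swimming and 37.2 in nonswimming mice. Lox had 0.618, 0.470 and 0.717. Loxl3, not well above background in nonswimming mice, was at least 2.71-fold higher with Chlorella than there.

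Of 16 genes of collagen breakdown, 4 enzymes held the 2-fold differences among measured genes. Mmp8, the collagenase of neutrophils, had a log2 ratio of 3.55 ± 0.24 in swimming against nonswimming mice and was not well above background with Chlorella. Mmp9, a gelatinase, had a scaled signal of 0.092 with Chlorella, 0.710 in swimming and 0.226 in nonswimming mice, so its log2 ratio was -2.95 ± 0.23 in Chlorella against normal food. Mmp13, a collagenase of cartilage and bone, had 0.256, 0.689 and 0.652, with -1.43 ± 0.21 in that comparison. Ctsk, the collagen-cutting cathepsin of osteoclasts, had 0.883, 1.40 and 1.83, with -1.05 ± 0.20 in Chlorella swimming against nonswimming mice. In all, 2 of 15 were at least 2-fold higher in swimming against nonswimming mice, beside 5.17% of all genes. In Chlorella against normal food 2 of 13 were lower, beside 4.90%, and in Chlorella swimming against nonswimming mice 3 of 13 were lower, beside 1.49%. By bounds, Mmp8 was at least 27.9-fold lower with Chlorella than with normal food in swimming mice and at least 2.39-fold lower than in nonswimming mice. Mmp16, a membrane metalloprotease, was at least 2.35-fold lower with Chlorella than in nonswimming mice. The neutrophil markers had medians of 4.08, -7.13 and -3.01 in swimming against nonswimming mice, Chlorella against normal food and Chlorella swimming against nonswimming mice. By at least 2-fold, 7 of 7 were higher, 6 of 6 lower and 6 of 6 lower, beside 5.17%, 4.90% and 1.49% of all genes. The part of neutrophils in the values of the breakdown genes was not tested.

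Of 9 collagen receptor genes 6 were measured in each comparison. Lair1, an inhibitory collagen receptor of leukocytes, was the one measured on both arrays with a 2-fold difference, at 1.16 ± 0.22 in swimming against nonswimming mice and -1.61 ± 0.24 in Chlorella against normal food. That was 1 of 6 higher, beside 5.17% of all genes, and 1 of 6 lower, beside 4.90%. Gp6, the collagen receptor of platelets, was well above background in swimming mice alone, where it was at least 4.41-fold higher than in nonswimming mice, and it was at least 3.78-fold lower with Chlorella than with normal food. Itga10, a collagen-binding integrin chain of cartilage cells, was also above background in swimming mice alone and at least 2.09-fold higher there than in nonswimming mice. Of 10 regulators of collagen genes 8 were measured. Ccn2, which encodes connective tissue growth factor, had 29.9 with Chlorella, 13.3 in swimming and 20.5 in nonswimming mice, a log2 ratio of 1.17 ± 0.20 in Chlorella against normal food. Runx2, a transcription factor of bone cells, had 1.07 ± 0.26 in swimming against nonswimming mice. Together with Sox9, these were the measured regulators past 2-fold. In Chlorella against normal food 2 of 8 were higher, beside 1.37% of all genes. In swimming against nonswimming mice 1 of 8 was higher, beside 5.17%. By bounds, Sox5 was at least 12.0-fold lower in swimming than in nonswimming mice, and Sp7, a transcription factor of bone-forming cells, at least 2.36-fold higher. Sp7 was at least 2.37-fold lower with Chlorella than with normal food.

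Different probes of a gene give a check within an array. Of the collagen genes, 17, 18 and 16 had at least 2 measured probes in swimming against nonswimming mice, Chlorella against normal food and Chlorella swimming against nonswimming mice. In 6, 5 and 6 of these a probe had the opposite sign. The distance from the brightest probe to the farthest other probe of the gene had a median of 0.24, 0.24 and 0.23 on the log2 scale, and the largest was 0.99, 1.36 and 1.08. A difference between 2 bright probes carries a scanner error of 0.29. For 12 of the 40 genes there was 1 probe and no such check.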

How the data were processed

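Per the labels' protocols, muscle RNA was pooled over 10 mice a group and put on 1 Cy3-labelled array for each pool. The deposited scanner files give each spot's intensity, corrected for background, with its error and flags, as written by Agilent Feature Extraction 9.5 (named in the submitters' processing notes). The value table that the authors deposited is on a log2 scale and covers 13683 spots, 34 of them for collagen genes. The sources used here do not say how it was centred, so it served for differences between columns alone; the column medians were 0.010 with Chlorella, -0.005 in swimming and 0.008 in nonswimming mice.

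Controls and flagged outlier spots were removed (0 of the 96 collagen spots were flagged), and repeated spots were averaged to 41169 probes. Each log2 intensity was set against its array's 75th percentile. A gene was represented by its brightest probe. With 1 array per group nothing was tested; genes were counted at 2-fold in each direction if well above background on both arrays, beside the share of all measured genes. The median scanner error was 10.0% of the signal. Gene names come from the files; the accessions of 57 of the 78 collagen probes are in a RefSeq table of GRCm38.p6, with 0 differing names. Probe coordinates are the files' own, of a build that the sources used here do not name. Lists of other genes were updated through that table. Collagens of the 3 main classes and those past 2-fold were named with values on all arrays, other collagens with some values, and genes of other lists mainly where past 2-fold.

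The members, classes and lists were chosen with earlier results of these data known. Alternatives were quantile and cyclic loess normalization, median centring, a percentile taken from well-detected probes alone, normexp with an offset of 50, no filter, a stricter filter (signal of at least 50), the mean over probes, the authors' table and a 1.5-fold threshold. Steps were tested on simulated data. R 4.3.3, limma 3.58.1, Python 3.11.15, numpy 2.4.6 and pandas 2.3.3 were used.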

Additional observations from a re-analysis of the deposited data

How the results depend on the processing

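The counts of collagen genes past 2-fold are small and moved with the treatment of dim probes. Counts over all measured genes are given in brackets. In swimming against nonswimming mice the count of lower genes was 2 of 37 (168 of 15660). With normexp it was 0 of 37 (42 of 15660). It was 0 of 26 with the stricter filter (51 of 11578) and 0 of 28 in the authors' table (112 of 12197). At 1.5-fold 6 of 37 were lower, beside 4.41% of all genes, and 1 was higher, beside 9.38%. In Chlorella against normal food the count of higher genes was 0 of 36 (213 of 15503). It was 1 of 36 with quantile normalization (255 of 15503) and with median centring (311 of 15503). Without a filter it was 1 of 40 (1239 of 27665). At 1.5-fold it was 7 of 36, beside 5.89% of all genes. The count of lower genes was 2 of 36 (759 of 15503), and 1 of 36 with normexp (302 of 15503). It was 1 of 26 with the stricter filter (269 of 11578) and 1 of 28 in the authors' table (562 of 12206). In Chlorella swimming against nonswimming mice the count of higher genes was 2 of 36 (320 of 15331). With normexp it was 0 of 36 (92 of 15331). It was 1 of 26 with the stricter filter (146 of 11578) and 1 of 27 in the authors' table (197 of 12155). The count of lower genes was 3 of 36 (229 of 15331), and 1 under these same 3 settings (57, 78 and 189 of all genes). It was 5 of 36 with the percentile over probes well above background (251 of 15331). At 1.5-fold it was 5 of 36, beside 5.79% of all genes.

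The cartilage median moved most, and under the stricter filter and in the authors' table it rests on 3 genes in the comparisons with Chlorella. In Chlorella against normal food it was -0.52, and -0.032 with normexp, -0.81 without a filter, -0.055 with the stricter filter and -0.25 in the authors' table. In Chlorella swimming against nonswimming mice it was -1.30, and -0.51 with normexp, -1.63 without a filter, -0.31 with the stricter filter, -1.53 with the mean over probes and -0.995 in the authors' table. For swimming against nonswimming mice it was -0.52, and -0.23 with normexp, 0.039 with the stricter filter and 0.0081 in the authors' table. The ratio of Col2a1 in Chlorella against normal food kept its direction in the 9 alternatives that gave it, from -3.12 to -2.23.

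Of the medians and counts, 142 alternative values moved by less than the scanner error, or for counts by less than 1.5 times, and 32 moved further. Of the ratios of single collagen genes, 883 moved by less than this error and 41 by more. The median over all genes shifted with median centring, by -0.15 (swimming against nonswimming mice) and 0.13 (Chlorella against normal food), and without the filter by -0.10 and 0.12. The causes were not tested. The stricter filter also left fewer genes. No paired analysis was possible because each group has 1 array. The single pool per group limits every comparison: the errors are technical, and signal near background limits Col9a1, Col9a3, Col10a1, Col12a1 and Col17a1.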

Other observations

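Some genes of the collagen family are listed under other names in the files and so lie outside the naming rule, and 1 of them was well above background. The gene listed as Emid2, which RefSeq names Col26a1, had a scaled signal of 0.590 with Chlorella, 0.354 in swimming and 0.634 in nonswimming mice. Its log2 ratio was 0.74 ± 0.21 in Chlorella against normal food, -0.84 ± 0.21 in swimming against nonswimming mice and -0.10 ± 0.21 in Chlorella swimming against nonswimming mice. Probes whose accessions RefSeq assigns to Col6a4 and Col6a6, further chains of type VI, and 1 more probe of Col11a1 were not well above background on any array.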
